A study of Mus musculus with 4 samples.

Results

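Cytotoxic lymphocytes kill other cells through proteins that they store in granules, and 8 of the genes that mark them were examined here in the mouse salivary gland: *Klrb1c* and *Ncr1*, which encode receptors on natural killer (NK) cells, *Nkg7*, *Prf1*, *Gzma* and *Gzmb*, which encode granule proteins, and *Ccl5* and *Xcl1*, which encode chemokines. They were taken by gene symbol from the 32285 genes listed in 1 matrix of UMI counts, of which 19290 had at least 1 UMI. UMIs are the random barcoded tags by which captured RNA molecules are told apart, so that each is counted once. The matrix holds 15707 barcodes, each taken as a cell, from single-cell RNA sequencing of the submandibular and sublingual glands together. The mice were wild-type C57BL/6N females, 6 to 8 weeks old, without treatment. The fresh glands were digested at 37 °C for 30 min with collagenases, hyaluronidase, dispase and pancreatin, and 3' libraries were made. The series lists 4 samples of this 1 group and its labels name 2 mice, whereas the study's methods name another number. Every barcode carries the same suffix, so a barcode could not be assigned to a gland, mouse or sample, the matrix counts as 1 sample, and no test between samples was run.

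As background, NK cells and their relatives, the group 1 innate lymphoid cells (ILC1), carry no T cell receptor and recognise target cells through receptors such as NK1.1, the product of *Klrb1c*, and NKp46, the product of *Ncr1*. On contact they release granules from which perforin (*Prf1*) opens the way for granzymes into the target cell, and CD8 T cells use the same granules. The salivary glands of mice are known to hold many resident lymphocytes of this kind, with features of both NK cells and ILC1.

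The 8 genes lie on 7 chromosomes of the mouse genome (GRCm38, GENCODE M21 annotation) and all are protein coding. *Nkg7* spans chr7:43437073-43438249 and *Ncr1* chr7:4337724-4345164, both on the plus strand. *Prf1* spans chr10:61297833-61304680, also on the plus strand. The minus strand holds *Klrb1c* (chr6:128778485-128789215), *Gzma* (chr13:113093825-113100981), *Gzmb* (chr14:56258838-56262260), *Ccl5* (chr11:83525778-83530518) and *Xcl1* (chr1:164931644-164935527). The granzymes *Gzma* and *Gzmb* are therefore at different loci. Of the 90-base windows in the 3' ends of the transcripts, where these libraries are read, 11.4% of those of *Klrb1c* also occur in *Gm44511*, which it overlaps, or in *Klrb1a*, so its counts are uncertain. The other members had 0 such windows, *Gzmb* included, and *Xcl1* overlaps *Gm20743* on the opposite strand.

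The promoters of the 4 granule genes are shown because these genes were found in the same class of cells and yet differed among its sub-clusters. Each sequence is 300 bases, 250 before and 50 after the transcription start, from RefSeq (GRCm38.p6), 5′ to 3′ on the strand of the gene: *Nkg7* at chr7:43436888-43437187 (plus), *Prf1* at chr10:61297586-61297885 (plus), *Gzma* at chr13:113100932-113101231 (minus) and *Gzmb* at chr14:56262285-56262584 (minus). Capitals mark matches, on either strand, to TGTGGT (a word bound by RUNX factors), AGGTGTNA (T-box factors such as T-bet and Eomes) and CAGGAAGT (ETS factors), and no matches overlapped.
Nkg7: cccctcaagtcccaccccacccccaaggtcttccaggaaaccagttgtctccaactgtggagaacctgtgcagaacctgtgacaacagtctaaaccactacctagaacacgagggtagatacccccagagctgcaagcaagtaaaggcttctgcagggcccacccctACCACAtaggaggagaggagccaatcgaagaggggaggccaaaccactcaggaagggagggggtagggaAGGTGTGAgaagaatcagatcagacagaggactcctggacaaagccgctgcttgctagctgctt
Prf1: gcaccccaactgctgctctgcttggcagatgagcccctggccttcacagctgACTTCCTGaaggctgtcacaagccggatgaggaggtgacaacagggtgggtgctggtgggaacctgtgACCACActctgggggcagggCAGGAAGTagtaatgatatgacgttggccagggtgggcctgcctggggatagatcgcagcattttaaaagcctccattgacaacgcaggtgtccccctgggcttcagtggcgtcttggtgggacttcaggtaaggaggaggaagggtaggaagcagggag
Gzma: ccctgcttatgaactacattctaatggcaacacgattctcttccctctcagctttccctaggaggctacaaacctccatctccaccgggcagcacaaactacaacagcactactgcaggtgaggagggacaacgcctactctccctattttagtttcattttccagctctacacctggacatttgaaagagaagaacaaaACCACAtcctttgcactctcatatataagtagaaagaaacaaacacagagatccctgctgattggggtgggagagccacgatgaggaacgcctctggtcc
Gzmb: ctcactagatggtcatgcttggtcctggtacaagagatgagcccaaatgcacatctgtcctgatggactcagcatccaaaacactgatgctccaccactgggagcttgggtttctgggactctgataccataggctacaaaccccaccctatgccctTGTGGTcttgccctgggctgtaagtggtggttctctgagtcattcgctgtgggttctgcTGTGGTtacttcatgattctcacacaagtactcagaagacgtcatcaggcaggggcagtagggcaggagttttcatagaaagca

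Of the 8 members, 7 had a promoter in the RefSeq table, *Ccl5* being the other. The RUNX word was found in 7 of these 7, including *Klrb1c*, *Ncr1* and *Xcl1*, and in 16.8% of all 32851 promoters of the same length. *Gzmb* had 2 matches, at 93 and 34 bases before its start, and *Gzma* had 1, at 50 bases. The T-box word was found in *Nkg7*, 14 bases before the start, against 3.03% of all promoters. Distances are from RefSeq starts, which can differ from the GENCODE spans given above. The T-box match lies inside the GENCODE span of *Nkg7*, and the *Gzmb* sequence lies wholly outside that of *Gzmb*. The ETS word was found in *Prf1*, which had 2 matches, and in *Xcl1*, against 3.33% of all promoters. These are matches of letters in short windows and no measurement of binding was made.

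The NK or ILC1-like class, 973 barcodes or 6.19% of all, holds the barcodes with no UMI of *Cd3d*, *Cd3e* or *Cd3g* in clusters with NK markers. The T-like class is the 55 barcodes with such a UMI in the cluster with T cell markers. None of the 8 genes was among the markers or the variable genes used for clustering. The 20 NK or ILC1 markers summed to 133 UMIs per 10000 UMIs in the first class, against 35.5 in T-like barcodes. In the first class 0 of the 20 were without a UMI. Without the 3 Cd3 genes, which split the classes, the other 15 T cell markers summed to 6.26 in NK or ILC1-like and 41.7 in T-like barcodes. Both lists also named the clusters, so these sums describe the classes and are no independent check of their names. T cell receptor genes did not all follow the names, since *Trbc1* had a UMI in 40.3% of NK or ILC1-like and 43.6% of T-like barcodes, whereas *Trac* had one in 2.06% and 45.5%. *Trbc2*, another of these genes, was among the 10 leading genes of sub-cluster 4, which has an NK or ILC1 name and is described below. *Cd4* had 0 UMIs in both classes. The 17 myeloid markers summed to 62.8, 13.4 and 673 UMIs per 10000 in NK or ILC1-like, T-like and myeloid-like barcodes, and *Tyrobp* and *Fcer1g* belong to both the NK and the myeloid list.

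A level below is the UMIs of a gene summed over a class per 10000 UMIs of that class, followed by its exact Poisson 95% interval. The intervals cover counting error only, so they leave out differences between cells, mice and samples. Since 3' ends were counted, levels were compared between classes and not between genes. The median depth was 1863 UMIs in NK or ILC1-like, 1815 in T-like and 6161 in serous acinar-like barcodes. Transcripts of saliva proteins were counted in every class: the 13 serous acinar markers summed to 1512 UMIs per 10000 in NK or ILC1-like and 1277 in T-like barcodes. Serous acinar-like barcodes, which should lack the 8 genes, serve as the background for free RNA. In that class, 107 barcodes with at least 3 of the 8 genes held 49.8% of the UMIs of these genes. Whether the background is free RNA alone was not tested.

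The 8 genes together held 32715 UMIs, which is 0.0262% of all UMIs and 0.954% of those in NK or ILC1-like barcodes. Of them, 74.2% (95% interval 73.8 to 74.7) were in the 1241 lymphoid-like barcodes. NK or ILC1-like barcodes held 59.2%, barcodes of the NK-named sub-clusters with a Cd3 UMI 12.8%, and T-like barcodes 1.82%. By gene, the share in lymphoid-like barcodes ran from 68.3% for *Ccl5* to 80% for *Xcl1*. The genes were thus mostly, but not wholly, in lymphoid-like barcodes.

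All 8 genes had a higher level in NK or ILC1-like than in T-like barcodes, with an interval of the ratio above 0 on the log2 scale for 8 of 8 and below 0 for 0 of 8. Among all 6357 genes with at least 20 UMIs in both classes together, 3.59% had an interval above 0 and 5.16% one below. The level was 2-fold or more higher for 6 of the 8 members, against 10.9% of the genes tested, and 2-fold or more lower for 0 of 8, against 10.2%. The median log2 ratio was 1.46 over the members and 0.03 over all genes tested. The members were picked as genes of cytotoxic cells with these data known, so their count says how far they differ and is no independent evidence that they do.

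Among the receptors, *Klrb1c* stood at 2.26 UMIs per 10000 (2.06 to 2.47) in NK or ILC1-like and 0.375 (0.102 to 0.961) in T-like barcodes, a log2 ratio of 2.59 (1.22 to 4.47). In T-like barcodes these were 4 UMIs in 3 barcodes. *Ncr1* stood at 2.1 (1.9 to 2.31) and 0.657 (0.264 to 1.35), a log2 ratio of 1.68 (0.62 to 3.00). Both receptors were low in number of molecules: *Klrb1c* had a UMI in 35.7% and *Ncr1* in 32.4% of NK or ILC1-like barcodes, and no barcode had over 4 UMIs of either. In serous acinar-like barcodes the shares were 1.17% and 0.993%. Thinned to 1000 UMIs per barcode, which left out none, the shares in NK or ILC1-like barcodes were 19.4% and 18.3%, in T-like barcodes 3.64% for each and in serous acinar-like barcodes 0.199% and 0.243%.

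In the order of classes, *Klrb1c* and *Ncr1* came below the T-like level in all other named classes. *Klrb1c* was at 0.0763 in mesenchymal-like, 0.0399 in ductal-like, 0.0381 in vascular-like, 0.0373 in myeloid-like and 0.00799 in serous acinar-like barcodes, with 0 UMIs in pericyte-like ones, and the intervals of the first 4 overlapped. *Ncr1* was between 0.014 and 0.0611 in the 5 named classes besides serous acinar-like, at 0.00652 there, and the intervals of mesenchymal-like, pericyte-like, myeloid-like and vascular-like barcodes overlapped. The T-like interval of *Klrb1c* overlapped the mesenchymal-like and pericyte-like ones, and that of *Ncr1* the pericyte-like one, which rests on 1 UMI.

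Among the granule genes, *Nkg7*, whose product is a membrane protein of cytotoxic granules, had a level of 16.2 (15.6 to 16.7) in NK or ILC1-like and 11.4 (9.42 to 13.6) in T-like barcodes. Its log2 ratio was 0.51 (0.25 to 0.78), below 2-fold. A UMI of *Nkg7* was in 90.1% of NK or ILC1-like, 60% of T-like and 5.34% of serous acinar-like barcodes. It was the granule gene seen in most barcodes, and its UMIs were spread over many of them, since no barcode held more than 19 of its 3279 UMIs and 244 barcodes were needed to hold 50%. In the remaining classes it was at 0.397 in mesenchymal-like, 0.395 in myeloid-like, 0.386 in pericyte-like, 0.221 in vascular-like, 0.177 in ductal-like and 0.0459 in serous acinar-like barcodes, the first 3 with overlapping intervals.

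*Prf1*, which encodes the pore-forming perforin, had a level of 1.29 (1.14 to 1.45) in NK or ILC1-like and 0.188 (0.0227 to 0.678) in T-like barcodes, where it had 2 UMIs. The log2 ratio was 2.78 (0.91 to 5.83). A UMI was in 21.9% of NK or ILC1-like, 3.64% of T-like (0.443 to 12.5) and 0.53% of serous acinar-like barcodes. The T-like interval reached down to the share of the deeper serous acinar-like barcodes. Thinned to 1000 UMIs, the shares were 1.82% (0.046 to 9.72) in T-like and 0.0883% (0.0241 to 0.226) in serous acinar-like barcodes, with overlapping intervals. By share of barcodes *Prf1* could therefore not be told from free RNA in T-like barcodes. By level the serous acinar-like interval (0.00215 to 0.00491) lay below the T-like one, which rests on 2 UMIs. In the other named classes *Prf1* was between 0.00333 in serous acinar-like and 0.11 in pericyte-like barcodes, all of these below the T-like level, but the T-like interval overlapped all of theirs except the serous acinar-like one.

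The granzymes are proteases that act inside the target cell, *Gzma* encoding a trypsin-like enzyme and *Gzmb* one that cuts after aspartate. *Gzma* had 1190 UMIs in NK or ILC1-like barcodes, a level of 5.87 (5.54 to 6.21), and 3 UMIs in T-like barcodes, a level of 0.281 (0.058 to 0.822). The log2 ratio was 4.38 (2.83 to 6.66). The 3 T-like UMIs were in 1 of the 55 barcodes (1.82%, 0.046 to 9.72), an interval that includes the 1.28% of the deeper serous acinar-like barcodes. Thinned to 1000 UMIs, the shares were 0% (0 to 6.49) and 0.331% (0.185 to 0.546), so by share *Gzma* in T-like barcodes could not be told from free RNA. By level the serous acinar-like interval (0.0132 to 0.0191) lay below the T-like one, which rests on that 1 barcode. Within NK or ILC1-like barcodes *Gzma* was held by few cells: 16.3% had a UMI, 24 barcodes held 50% of the UMIs and 1 held 52. Outside the lymphoid-like barcodes the order of the named classes was pericyte-like (0.882, 16 UMIs in 3 barcodes), myeloid-like (0.145), ductal-like (0.122), vascular-like (0.0343), serous acinar-like (0.016) and mesenchymal-like (0.0153). The pericyte-like interval overlapped that of T-like barcodes, and the next pair, myeloid-like and ductal-like, overlapped too.

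*Gzmb* had a level of 8.63 (8.24 to 9.05) in NK or ILC1-like and 3.85 (2.76 to 5.22) in T-like barcodes, a log2 ratio of 1.17 (0.72 to 1.65). A UMI was in 39.7% of the first and 7.27% (2.02 to 17.6) of the second, that is in 4 of 55 barcodes, against 3.36% of serous acinar-like barcodes. Of the 41 T-like UMIs, 1 barcode held 31 or 75.6%, and without it the T-like level was 0.971 (0.466 to 1.79). That barcode had 3663 UMIs, 2 of them of Cd3 genes and 15 of *Gzmc*, and none of *Cd8a*, *Cd8b1* or *Trdc*. With the highest barcode of each class set to 0, an alternative added after the data were seen, the log2 ratio of *Gzmb* was 3.15 (2.27 to 4.22), so the size of its difference rests on 1 T-like barcode and its direction does not. The other named classes ranged from 0.0329 in serous acinar-like to 0.229 in mesenchymal-like barcodes, and the mesenchymal-like, myeloid-like and pericyte-like intervals overlapped.

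The chemokine gene *Ccl5*, whose product draws in leukocytes, had a level of 39 (38.1 to 39.8) in NK or ILC1-like and 30.6 (27.4 to 34.1) in T-like barcodes. The log2 ratio of 0.35 (0.19 to 0.51) was the smallest of the 8, and its direction depended on how the cells were clustered: it was -0.03 (-0.16 to 0.11) with 30 principal components, -0.08 (-0.21 to 0.06) with the 8 genes kept among the variable genes and -0.12 (-0.26 to 0.02) with a filter on barcodes. Which of the 2 classes was higher in *Ccl5* was therefore not settled by these data. A UMI was in 82.1% of NK or ILC1-like and 56.4% of T-like barcodes, and in 12.5% of serous acinar-like barcodes. In T-like barcodes 62 of the 326 UMIs were in 1 barcode. After myeloid-like barcodes, described further on, the order of named classes outside lymphocytes was pericyte-like (2.54), mesenchymal-like (0.687), vascular-like (0.571), ductal-like (0.555) and serous acinar-like (0.169), and the intervals of mesenchymal-like, vascular-like and ductal-like barcodes overlapped.

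*Xcl1* encodes a chemokine for dendritic cells that carry the receptor XCR1. It had a level of 20.1 (19.5 to 20.7) in NK or ILC1-like and 8.54 (6.87 to 10.5) in T-like barcodes, a log2 ratio of 1.24 (0.94 to 1.55). A UMI was in 83.1%, 36.4% and 6.09% of NK or ILC1-like, T-like and serous acinar-like barcodes. One T-like barcode held 28 of the 91 UMIs, and with the highest barcode of each class set to 0 the log2 ratio was 1.74. The other named classes were at 0.717 (pericyte-like), 0.596 (mesenchymal-like), 0.421 (myeloid-like), 0.176 (ductal-like), 0.145 (vascular-like) and 0.0562 (serous acinar-like), and each of the first 3 overlapped its neighbour.

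**Figure D1:**
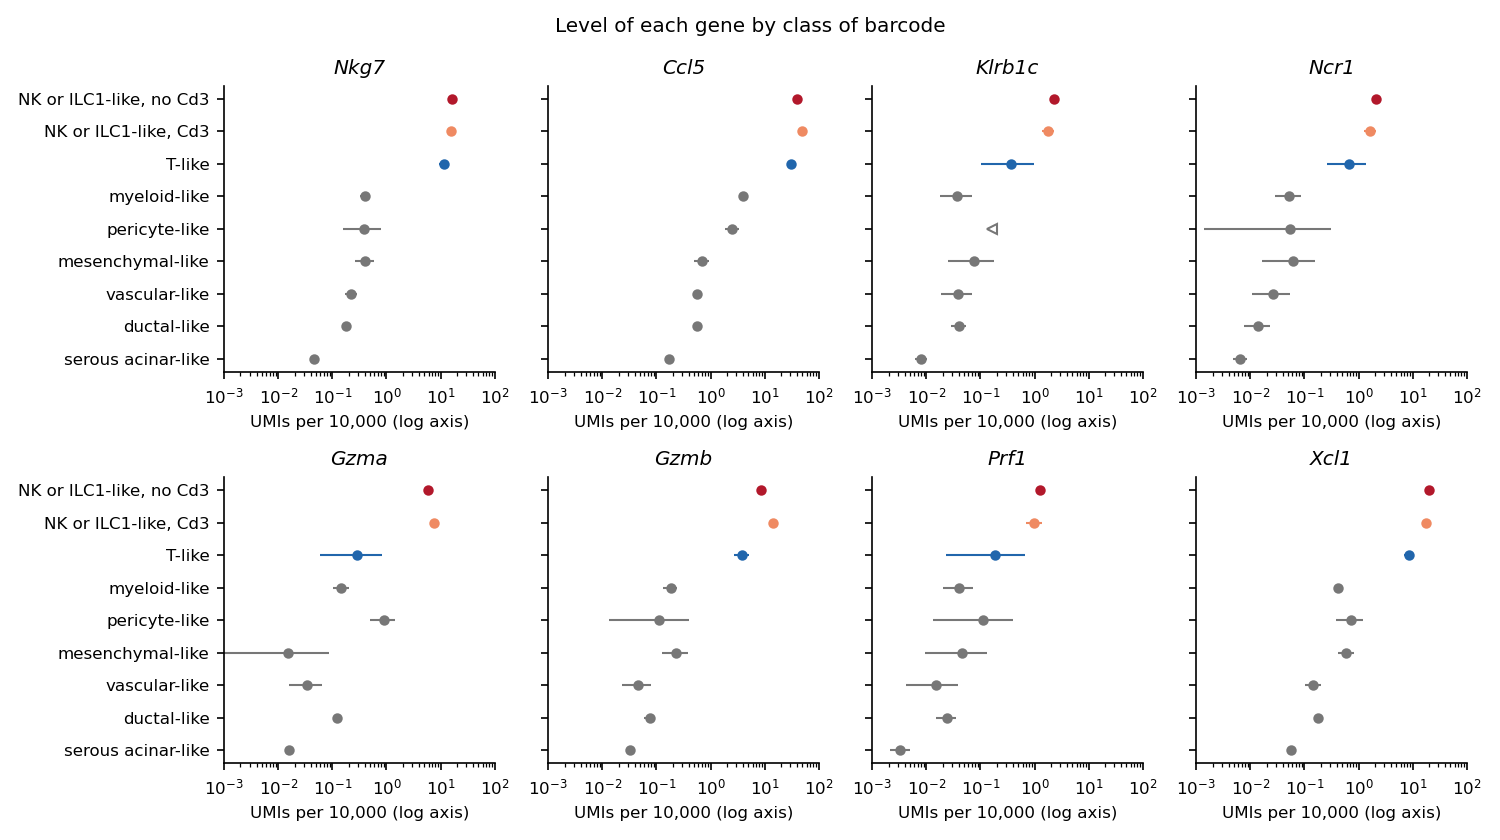
Level of each gene (UMIs per 10000, log axis) in 9 classes of barcodes, with exact Poisson 95% intervals and, for 0 UMIs, an open triangle at the level that 3 UMIs would give. The NK or ILC1-like classes without and with a Cd3 UMI and the T-like class lie to the right, and *Gzma* is the gene whose T-like level (0.281) is below one of the other classes plotted (pericyte-like, 0.882), unnamed clusters being left out.

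**Figure D2:**
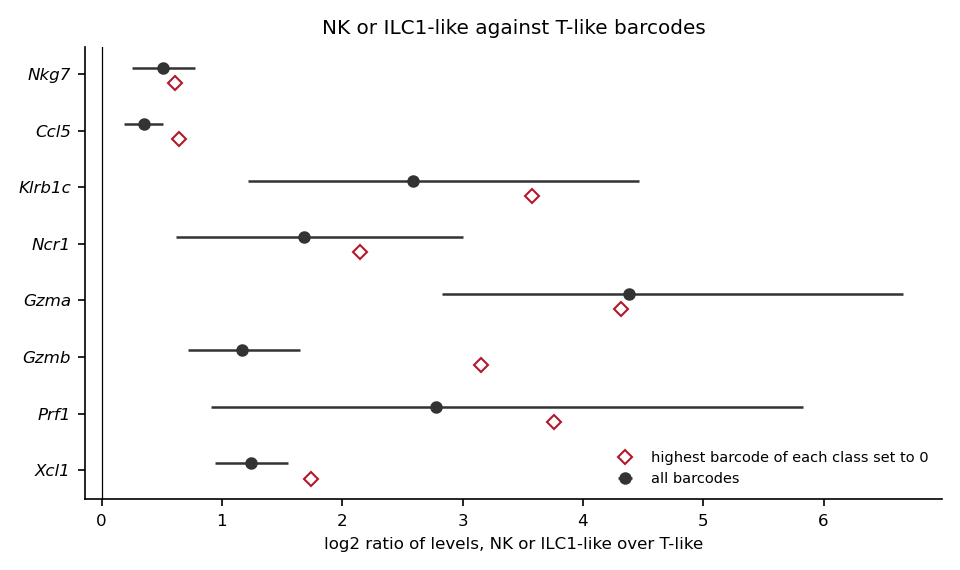
Log2 ratio of levels, NK or ILC1-like over T-like, for the 8 genes, with exact 95% intervals that cover counting error only (circles), and with the barcode with most UMIs of the gene set to 0 in each class (open diamonds). All circles lie above 0, and *Gzmb* moves from 1.17 to 3.15, while the diamond of *Gzma* is a lower bound (4.32) computed against 3 UMIs since no T-like UMI is left.

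Against the named classes outside the lymphoid-like barcodes the difference was larger. The level in NK or ILC1-like barcodes was 4-fold or more above the highest named class for 8 of the 8 members, against 1.64% of the 10661 genes tested. The log2 ratios were 5.35 for *Nkg7* (over mesenchymal-like), 5.24 for *Gzmb* (mesenchymal-like), 5.10 for *Ncr1* (mesenchymal-like), 4.89 for *Klrb1c* (mesenchymal-like), 4.81 for *Xcl1* (pericyte-like), 3.54 for *Prf1* (pericyte-like, 2 UMIs), 3.31 for *Ccl5* (myeloid-like) and 2.73 for *Gzma* (pericyte-like). With 16 alternatives for each gene, all 128 values kept this direction and an interval above 0. The unnamed cluster 22, 37 barcodes with both NK and ductal markers, was left out of this comparison. Over that cluster all 8 members were higher too, but only *Ccl5* (4.33-fold) and *Gzma* (20.3-fold) by 4-fold or more, and the others by 2.23-fold (*Prf1*) to 3.65-fold (*Gzmb*). The 1.64% does not apply to cluster 22, and no share of all genes is given for it, so these counts only describe that cluster.

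Outside the lymphoid-like barcodes, the named class with the highest *Ccl5* was the myeloid-like one, at 3.94 (3.71 to 4.19). A UMI was in 13.7% of these barcodes and 12.5% of the deeper serous acinar-like ones, and, thinned to 1000 UMIs, in 9.67% (7.96 to 11.6) and 4.26% (3.69 to 4.89). The myeloid-like UMIs were concentrated, since 11 barcodes held 50% of the 1058. They were also uneven between clusters: cluster 17, led by *Mgl2*, *Cd209a* and *Ccl22*, genes of dendritic cells and related phagocytes, was at 10.7 (9.79 to 11.7), and cluster 5, led by *C1qa* and *C1qb*, complement genes of macrophages, at 2.53 (2.32 to 2.75). The 4-fold call of *Ccl5* above holds for the pooled myeloid-like class. Over cluster 17 alone the NK or ILC1-like level (39) was less than 4-fold higher. One barcode of cluster 12, an unnamed cluster with mucous acinar markers, held 494 UMIs of *Ccl5* among 33348 UMIs and no UMI of the other members.

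Receptors that bind these chemokines were looked up in the same classes. *Ccr1*, which encodes a receptor for CCL5, was at 0.373 in myeloid-like barcodes and at 0 UMIs in NK or ILC1-like and T-like barcodes. *Xcr1*, the receptor for XCL1, had 16 UMIs in myeloid-like barcodes, 10 of them in cluster 17 (0.21, 0.101 to 0.387), and 0 in NK or ILC1-like barcodes. *Ccr3*, *Ackr1* and *Ackr2* had 0 UMIs in NK or ILC1-like, T-like and myeloid-like barcodes.

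The NK-named barcodes were not uniform. Clustering of the 1241 lymphoid-like barcodes on their own gave 5 sub-clusters with NK or ILC1 names, 1 with a T cell name, 1 unnamed and 1 of 3 barcodes with B or plasma cell markers. Sub-cluster 0 (383 barcodes) was led by *Ms4a4b* and the Ly49 receptor genes *Klra4* and *Klra8*, and sub-cluster 1 (357) by *Gzmc*, *Cd7* and *Inpp4b*. Sub-cluster 3 (112) was led by cell-cycle genes, and *Mki67* was at 2.31 UMIs per 10000 there and at 0 UMIs in sub-clusters 0 and 1. Sub-clusters 2 (187) and 4 (101) were rich in transcripts of secretory cells: 10 secretory genes took 36.4% and 25.8% of their UMIs, against 9.22% to 11.3% in sub-clusters 0, 1 and 3. Of sub-cluster 4, 51.5% of barcodes were among the 10% with the highest doublet scores.

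*Gzmb* differed most between these sub-clusters. It was at 2.75 (2.37 to 3.17) in sub-cluster 0 and 22.1 (21 to 23.3) in sub-cluster 1, a log2 ratio of 3.01 (2.79 to 3.23), with a UMI in 17.5% and 74.8% of barcodes. In sub-clusters 2, 3 and 4 it was at 7.91, 4.6 and 4.35. *Gzmb* itself took no part in the clustering, but *Gzmc*, another granzyme gene, led sub-cluster 1, at 2.49 and 34.8 in sub-clusters 0 and 1. The *Gzmb* difference is therefore given as a description of these sub-clusters.

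*Ccl5* was also higher in sub-cluster 1, at 66.3 (64.3 to 68.2) against 35.3 (33.9 to 36.8) in sub-cluster 0, a log2 ratio of 0.91 (0.84 to 0.98). In sub-clusters 2, 3 and 4 it was at 35.6, 15.9 and 31.4, so unlike *Gzmb* it was lower in sub-clusters 3 and 4 than in sub-cluster 0. The remaining genes differed less between the 2 sub-clusters. The log2 ratio of sub-cluster 1 over sub-cluster 0 was 0.52 for *Gzma*, 0.18 (-0.13 to 0.48) for *Klrb1c*, 0.08 (-0.33 to 0.49) for *Prf1*, -0.10 (-0.21 to 0.01) for *Nkg7*, -0.21 for *Xcl1* and -0.35 for *Ncr1*. *Gzma* had the higher level in sub-cluster 1 (8.74 against 6.09) but the smaller share of barcodes with a UMI (10.9% against 20.6%), so its UMIs there lay in fewer barcodes. In barcodes without a Cd3 UMI the 2 *Gzma* levels were 7.49 (6.77 to 8.27) and 6.6 (5.98 to 7.26), with overlapping intervals.

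Other genes also separated sub-clusters 1 and 0. *Itgae*, which encodes the integrin CD103 of tissue-resident lymphocytes, was at 1.42 (1.15 to 1.73) in sub-cluster 1 and 0.0437 (0.00901 to 0.128) in sub-cluster 0, and *Itga1*, which encodes CD49a, at 1.75 (1.44 to 2.09) and 0.815 (0.616 to 1.06). *Rgs1* was at 16 and 7.41 and the chemokine gene *Ccl4* at 24 and 9.46. *Eomes*, a transcription factor of conventional NK cells, was lower in sub-cluster 1, at 0.355 (0.227 to 0.528) against 1.14 (0.898 to 1.42), while *Tbx21*, which encodes T-bet, was at 0.917 (0.703 to 1.18) and 0.582 (0.416 to 0.793). These genes are markers or leading genes of the sub-clusters and are given to describe them.

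In the cycling sub-cluster 3 most members were lower than in sub-cluster 0. The log2 ratios were -1.27 (-1.61 to -0.94) for *Gzma*, -1.17 (-1.88 to -0.52) for *Prf1*, -1.16 (-1.29 to -1.02) for *Ccl5*, -0.94 (-1.43 to -0.47) for *Klrb1c*, -0.58 for *Ncr1*, -0.50 for *Xcl1* and -0.44 for *Nkg7*. *Gzmb* was the exception at 0.74 (0.43 to 1.05). The median depth of sub-cluster 3 was 3017.5 UMIs against 1691 in sub-cluster 0, and per barcode 3 of these genes went the other way: *Nkg7* had 4.67 UMIs against 3.42, *Xcl1* 5.74 against 4.4 and *Ncr1* 0.58 against 0.467. Per barcode *Ccl5* was at 5.27 against 6.34 and *Gzma* at 0.839 against 1.09, so these stayed lower on both scales. The part of depth in the differences was not tested. The share of all genes lower in sub-cluster 3 than in sub-cluster 0 is not given, so these differences are not read as particular to the members.

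The unnamed sub-cluster 6, with 33 barcodes led by *Areg*, *Gata3* and *Il1rl1*, genes of group 2 innate lymphoid cells, had next to none of the members. *Klrb1c*, *Gzma*, *Gzmb* and *Prf1* had 0 UMIs there, for which a floor of 3 UMIs gives a level of up to 0.509 each. *Nkg7* was at 0.34 (0.0411 to 1.23), *Ncr1* had 1 UMI, *Xcl1* was at 1.7 and *Ccl5* at 1.87. Of its barcodes 27 of 33 had none of the 8 genes.

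**Figure D3:**
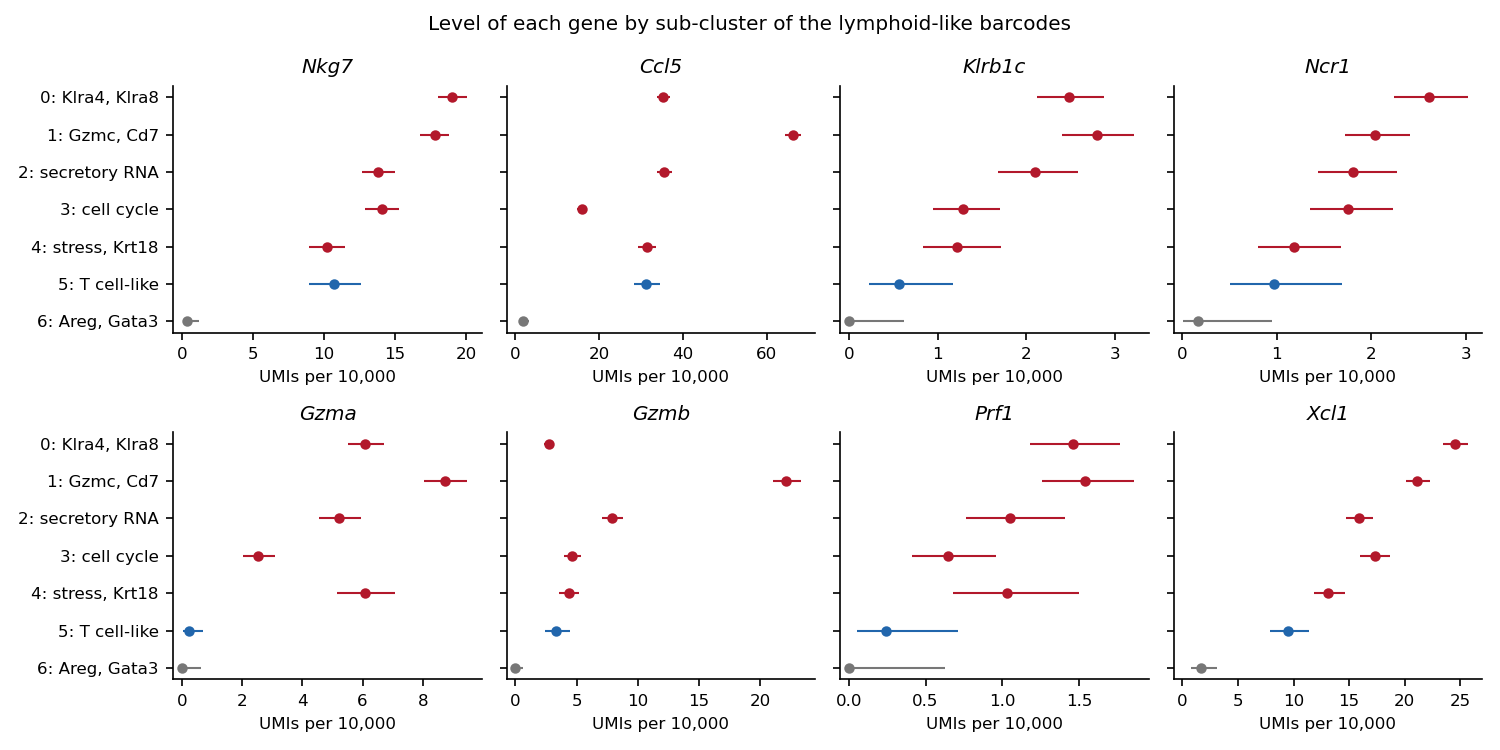
Level of each gene (UMIs per 10000, linear axes that differ between panels) in 7 sub-clusters of the lymphoid-like barcodes, with exact Poisson 95% intervals, in red for NK or ILC1 names, blue for the T cell name and grey for the unnamed one. *Gzmb* stands at 22.1 in sub-cluster 1 and at 2.75 in sub-cluster 0, and *Nkg7* at 17.8 and 19.

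The NK-named sub-clusters also held 167 barcodes with a Cd3 UMI, kept apart from both classes. In 142 of them the UMI was of *Cd3g*, in 45 of *Cd3d* and in 15 of *Cd3e*, and *Trac* was in 7.78%, against 45.5% of T-like barcodes. Their NK markers summed to 134 UMIs per 10000, as in the NK or ILC1-like class (133), and their T cell markers without the Cd3 genes to 9.91. Most members were nearer to the NK or ILC1-like than to the T-like level: *Klrb1c* at 1.78 (1.39 to 2.25), *Ncr1* at 1.63 (1.25 to 2.08), *Nkg7* at 15.5 (14.2 to 16.7), *Prf1* at 0.981 (0.694 to 1.35) and *Xcl1* at 17.7 (16.4 to 19.1). *Gzma* (7.51, 6.67 to 8.42), *Gzmb* (14.2, 13 to 15.4) and *Ccl5* (49.2, 47 to 51.5) were above the NK or ILC1-like level. For *Gzma* this rests on few barcodes, since 1 held 51 of the 291 UMIs. Without that barcode the *Gzma* level was 6.22 (5.46 to 7.06), an interval that includes the NK or ILC1-like level of 5.87. The share of barcodes with a *Gzma* UMI was 11.4% (6.99 to 17.2) against 16.3% (14.1 to 18.8) in NK or ILC1-like barcodes.

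Sub-cluster 1 held 77 of these 167 barcodes. Within it *Gzmb* was at 25.9 (23.4 to 28.7) with and 21 (19.8 to 22.3) without a Cd3 UMI, and *Ccl5* at 80.8 (76.3 to 85.4) and 62.1 (60 to 64.3). Within sub-cluster 0 *Gzmb* was at 1.7 (0.776 to 3.22) and 2.84 (2.44 to 3.29), so *Gzmb* differed more between these sub-clusters than by Cd3 UMI within them. With classes made from Cd3 UMIs alone, these 167 barcodes and 3 of sub-cluster 6 counted as T-like. The other 30 of sub-cluster 6, the 3 with B or plasma cell markers and 10 of the T cell-named sub-cluster counted as NK or ILC1-like. The log2 ratio of NK or ILC1-like over T-like was then -0.52 for *Gzmb*, -0.26 for *Ccl5*, -0.08 for *Gzma* and 0.10 for *Nkg7*. An interval above 0 was kept by 4 of the 8 members. The comparison of the 2 classes thus rests on how such barcodes are assigned, and the part of the 167 alone was not tested.

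The T-like class was itself mixed. A UMI of *Cd8a* or *Cd8b1* was in 25 of the 55 barcodes, *Trdc*, the constant gene of the delta chain of gamma-delta T cells, in 11 others, and neither in 19, a split on *Trdc* chosen after the data were seen. *Ccl5* was at 53.1 (46.7 to 60.2) in the barcodes with Cd8, 6.49 (3.55 to 10.9) in those with *Trdc* and 17.1 (13.2 to 21.7) in the rest. *Nkg7* was at 14.5 (11.2 to 18.4), 3.71 (1.6 to 7.31) and 11.9 (8.7 to 15.9). In barcodes with Cd8 the *Nkg7* interval overlapped that of NK or ILC1-like barcodes and the *Ccl5* one lay above it, but 1 barcode held 62 of their 246 *Ccl5* UMIs, and without it the level was 41.9 (36.1 to 48.4), an interval that includes the NK or ILC1-like level. Without the barcode with most UMIs, the levels in those with *Trdc* were 3.69 for *Ccl5* and 2.02 for *Nkg7*.

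The receptor and granzyme genes were sparse in the barcodes with Cd8. *Klrb1c*, *Ncr1* and *Gzma* had 0 UMIs in the 25, for which a floor of 3 barcodes gives a share of up to 12%, *Prf1* had 1 UMI and *Gzmb* 8 UMIs in 2 barcodes (1.73, 0.745 to 3.4), 6 of them in 1 barcode, without which the level was 0.456. *Xcl1* was at 3.45 (1.97 to 5.61) with Cd8, 2.32 (0.753 to 5.41) with *Trdc* and 18.1 (14.1 to 22.8) in the 19 with neither, where 1 barcode held 28 of the 70 UMIs and the level without it was 12 (8.64 to 16.2). With *Trdc* it was 1 (0.121 to 3.62) without the barcode with most UMIs. All but 1 of the 4 *Klrb1c* UMIs and 5 of the 7 *Ncr1* UMIs of the T-like class were in those 19 as well, and so were 33 of its 41 *Gzmb* UMIs. *Fcer1g*, an NK marker, had a UMI in 23.6% of T-like barcodes.

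Counted per barcode, NK or ILC1-like cells carried several members at once. The median number of the 8 genes with a UMI was 4 (quartiles 3 and 5), and 88.2% (86 to 90.1) of barcodes had at least 3. Of the 973, 9 had none and 1 had all 8. In T-like barcodes the median was 2 (quartiles 0 and 3), 32.7% (20.7 to 46.7) had at least 3, and 16 of 55 had none. In serous acinar-like barcodes 2.36% had at least 3 and 79% had none.

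**Figure D4:**
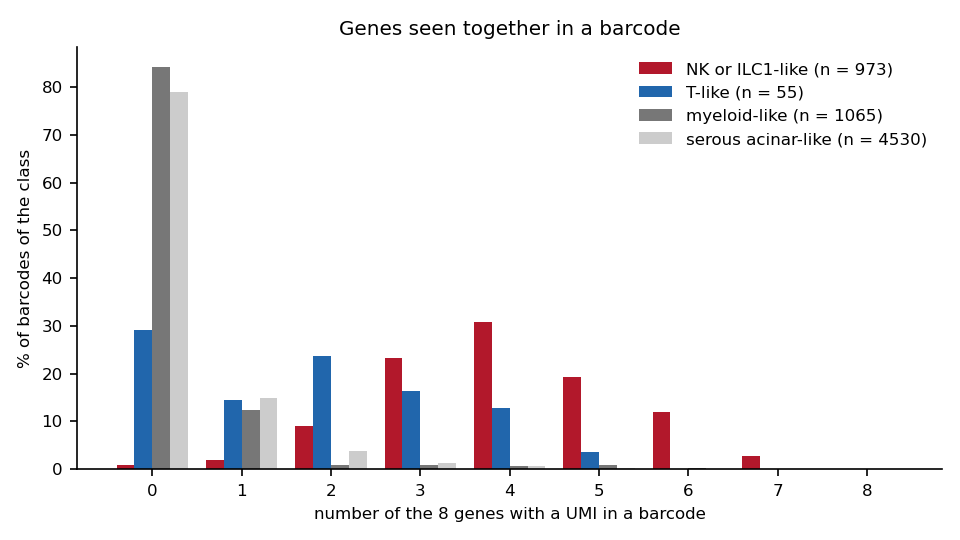
Share of barcodes (% of the class) by how many of the 8 genes had a UMI, for 4 classes. NK or ILC1-like barcodes peak at 4 genes (30.8%), whereas T-like barcodes are highest at 0 (29.1%) and 2 (23.6%), and 84.2% of myeloid-like and 79% of serous acinar-like barcodes have none.

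Some pairs of genes were seen together in NK or ILC1-like barcodes more than others. *Gzmb* had a UMI in 51% of barcodes with *Klrb1c* and 33.4% of those without, in 42.7% with *Ccl5* and 25.9% without, and in 51.2% with *Prf1* and 36.4% without. *Gzma* was in 18.3% of barcodes with *Ccl5* and 7.47% of those without. The granzymes themselves went together little, *Gzmb* being in 43.4% of barcodes with *Gzma* and 38.9% of those without. *Klrb1c* was in 34.4% of barcodes with *Ccl5* and 41.4% of those without. These shares depend on the depth of each barcode and on the sub-clusters, and are given as a description.

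The levels of most members differed between NK or ILC1-like barcodes of low and high depth. From the 325 NK or ILC1-like barcodes with the fewest UMIs (median 1511) to the 324 with the most (median 2576.5), the level was lower for 6 of the 8 genes. No share over all genes is given beside this count, so it is not read as a trait of the members. *Gzma* went from 7.63 (6.88 to 8.44) to 3.97 (3.58 to 4.39), *Ccl5* from 52.9 (50.9 to 55) to 30.4 (29.3 to 31.6) and *Klrb1c* from 3.17 (2.7 to 3.71) to 1.72 (1.46 to 2.01). *Prf1* went from 1.67 (1.33 to 2.07) to 1.04 (0.839 to 1.26), *Nkg7* from 17.3 (16.1 to 18.5) to 14.2 (13.5 to 15) and *Ncr1*, with overlapping intervals, from 2.4 (1.99 to 2.88) to 1.74 (1.48 to 2.03). The other two were not lower. *Gzmb* was at 7.47 (6.72 to 8.27) and 8.79 (8.2 to 9.42), and *Xcl1* at 19 (17.8 to 20.3) and 20.1 (19.2 to 21). The 10 secretory genes took 14.1% and 19.2% of the UMIs of these 2 sets. The part of the secretory genes in the differences was not tested, nor was that of the sub-clusters, whose median depths also differed.

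Outside the lymphoid-like barcodes the UMIs of the members were not spread evenly either. There, 298 barcodes, 2.06%, had at least 3 of the 8 genes and held 45.4% of the UMIs. These barcodes were deeper, with a median of 5049.5 UMIs against 2713 in those with none, and 57% of them against 8.98% were among the 10% with the highest doublet scores. Their NK or ILC1 markers summed to 13.3 UMIs per 10000 against 1.7. By class, barcodes with at least 3 members held 94.3% of the UMIs in pericyte-like, 92% in mesenchymal-like, 76.3% in ductal-like and 35.8% in myeloid-like barcodes. In serous acinar-like barcodes, used above as the background for free RNA, 107 such barcodes held 49.8%. Of these 107, 65.4% were among the 10% with the highest doublet scores, against 12.8% of serous acinar-like barcodes with no member. Cluster 22, which had 14 NK and 11 ductal markers, had at least 3 members in 78.4% of its barcodes, with *Nkg7* at 6.4 and *Xcl1* at 6.86. The pericyte-like and mesenchymal-like levels given above thus rest mostly on 3 and 8 barcodes.

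Further genes of the cytotoxic pathway were read from lists chosen with earlier results of these data known. Of 16 other granule and killing genes 9 could be compared and 3 were 2-fold or more higher in NK or ILC1-like barcodes, with 0 lower and a median log2 ratio of 0.91 against 0.03 over all genes. Over all genes tested 10.9% were 2-fold or more higher and 10.2% lower. *Gzmc*, a granzyme gene, was at 13.9 (13.4 to 14.4) against 1.5 (0.858 to 2.44) in T-like barcodes, *Ctsd*, which encodes cathepsin D, at 4.89 against 1.97, and *Cst7*, which encodes a cathepsin inhibitor, at 1.51 against 0.657. *Ctsw*, a cathepsin gene of cytotoxic cells, was at 10.6 against 5.63, and *Srgn*, which encodes the granule proteoglycan serglycin, at 10.5 against 11.1. *Gzmc* and *Ctsw* are also among the markers that named the class, so their direction was set in part by the naming. *Gzmd*, *Gzme*, *Gzmg* and *Gzmn* had 0 UMIs in NK or ILC1-like barcodes, and *Gzmf*, *Gzmk* and *Gzmm* between 3 and 8.

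The genes of granule release showed no common direction, 3 of 10 being 2-fold or more higher and 2 lower, beside 10.9% and 10.2% of all genes tested, with a median of -0.04. *Vamp8*, which encodes a vesicle fusion protein, was at 1.45 against 0.563, and *Coro1a*, an actin regulator gene, at 5.24 against 8.91. *Stx11* and *Lyst*, genes of granule fusion and of lysosome traffic, had 3 UMIs each in T-like barcodes and log2 ratios of -1.25 (-2.97 to 1.12) and -1.19 (-2.90 to 1.18). *Stx4a* was at 0.424 and 0.469. Of the 4 granzyme inhibitor genes 3 could be compared: *Serpinb9*, which protects cells from granzyme B, was at 1.7 (1.52 to 1.88) against 1.31 (0.718 to 2.2), *Serpinb6b* at 1.67 against 0.938 and *Serpinb6a* at 0.222 against 0.938.

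Of 9 further cytokine and chemokine genes 6 could be compared, 3 of them 2-fold or more higher and 3 lower in NK or ILC1-like barcodes, beside 10.9% and 10.2% of all genes tested. *Ccl4* was at 13.2 (12.7 to 13.7) against 2.81 (1.9 to 4.02) and *Ccl3* at 1 against 0.188, chemokine genes both of which were higher in myeloid-like barcodes (126 and 32.8). *Tgfb1*, which encodes a regulatory cytokine, was at 3.21 against 1.13. The lower genes included *Ltb*, which encodes lymphotoxin beta, at 2.78 against 6.57, and, named after its values were seen, *Ifng*, which encodes interferon gamma, at 0.705 (0.594 to 0.83) against 1.5 (0.858 to 2.44).

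The list with most genes past 2-fold was that of NK receptors and adaptors, with 18 of 29 higher and 2 lower (10.9% and 10.2% of all genes tested), a median of 1.62 and 2 without a ratio. It shares genes with the markers that named the class, so its direction was set in part by the naming. *Klra4* was at 4.91 against 0.375, *Klra9* at 3.57 against 0.281, *Klri2* at 0.858 against 0.0938 and *Klrd1*, which encodes CD94, at 7.66 against 2.81. The signalling adaptors *Tyrobp* (27.1 against 4.6) and *Fcer1g* (32.4 against 8.44) were also 2-fold or more higher. Of the group 1 ILC regulators 2 of 10 were higher and 1 lower, against the same 10.9% and 10.2%, with a median of 0.35. *Eomes* was at 0.725 and *Tbx21* at 0.616, each against 0.188 from 2 UMIs, whereas *Ikzf2*, which encodes Helios, was at 0.508 against 1.5. *Eomes* was also on the marker lists used for naming. *Runx3* (3.86 against 3.19), *Id2* (2.85 against 1.69) and *Stat4* (2.21 against 1.69) were below 2-fold.

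Of 7 tissue residency genes 3 were 2-fold or more higher and 2 lower, beside 10.9% and 10.2% of all genes tested, with a median of 0.88. *Itga1* was at 1.1 against 0.281, *Itgae* at 0.542 against 0.0938 and *Rgs1* at 9.89 against 4.78, while *Cxcr6*, a chemokine receptor gene of resident lymphocytes, was at 0.37 (0.291 to 0.463) against 3.94 (2.84 to 5.33). *Inpp4b* (1.21 against 0.657) and *Rgs2* (5.31 against 3.38) were below 2-fold. *Itga1* is also among the markers used for naming, so its direction was set in part by the naming. Of 10 genes of circulating NK cells 5 had at least 20 UMIs, 0 of them were 2-fold or more higher (10.9% of all genes tested), 2 were lower (10.2%) and 2 had no ratio. *Ly6c2* was at 0.108 (0.068 to 0.164) against 3.47 (2.44 to 4.78) and the homing gene *Klf2* at 0.375 against 0.844. *Zeb2*, which encodes a transcription factor, was at 0.207 with 0 T-like UMIs.

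Over 30 clusters and lymphoid sub-clusters of at least 20 barcodes, which overlap, the pattern of each member was compared with those of 12486 genes by Pearson's r of log2(level + 0.1), as a description. The most alike non-member was *Ctsw* for *Nkg7* (0.990) and for *Xcl1* (0.994), *Sh2d2a* for *Ncr1* (0.992), *Styk1* for *Prf1* (0.990) and for *Gzma* (0.960), *Ipcef1* for *Klrb1c* (0.983), *Tnfrsf9* for *Gzmb* (0.979) and *Klrd1* for *Ccl5* (0.951). The next were *Ms4a4b* for *Nkg7* (0.989), *Il2rb* for *Xcl1* (0.993), *Ctsw* for *Ncr1* (0.987), *Fasl*, which encodes Fas ligand, for *Prf1* (0.975), *Klra9* for *Gzma* (0.945), *Klra3* for *Klrb1c* (0.982), *Ipcef1* for *Gzmb* (0.973) and *Ptpn22* for *Ccl5* (0.945). The clusters are all from 1 sample. Among the members, *Nkg7* and *Xcl1* (0.987) and *Klrb1c* and *Prf1* (0.982) were in each other's first 3.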

How the data were processed

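Single cells of mouse submandibular and sublingual glands were profiled with 10x Genomics 3' libraries. The authors deposited 1 matrix of UMI counts, not normalized, made with Cell Ranger 6.0.1 on mm10, as its header and the submitters' notes give, and the notes also name Seurat 4.1.1. The matrix had 125100595 UMIs, a median of 2608 UMIs and 689 genes per barcode and at least 1374 UMIs in each. Which gene annotation was used for counting is not given in the sources used here.

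These counts were clustered with Seurat 5.3.0 under R 4.3.3 (normalization to 10000 UMIs, 2000 variable genes less the 8 members, 20 principal components, resolution 0.5), which gave 23 clusters. The lymphoid-like clusters were clustered again into 8 sub-clusters. A marker counted for a cluster when at least 25% of its barcodes had a UMI and its level was higher than in the others. A name needed at least 3 markers and was withheld where the next list reached 50% of their number, and for sub-clusters that next list counted only markers above other lymphoid-like barcodes, a rule set after the data were seen. Levels are UMIs per 10000 with exact Poisson intervals, shares have exact Clopper-Pearson intervals, and ratios have exact conditional binomial intervals, all at 95% and for counting error only. A class at 0 UMIs was given a floor of 3 UMIs. Sums, intervals and plots were made with pandas 2.3.3, scipy 1.17.1, numpy 2.4.6, matplotlib 3.10.9 and scanpy 1.11.5 (Python 3.11.15), and the ratios and intervals were tested on simulated data. Scrublet called 0 doublets, so it did not work as a caller, no barcode was removed and only its scores were used.

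The members and lists were chosen with earlier results of these data known. Named from each list were the 3 genes with the most UMIs in NK or ILC1-like barcodes and the 3 with the largest log2 ratio either way, and for each member the 3 genes with the most similar pattern. Other genes of the lists, those that describe the sub-clusters and those of single barcodes or classes were named after their values were seen. Single genes of these lists that the rule also names are not reported here. Alternatives were resolutions of 0.3 and 0.8, 10 and 30 principal components, members kept among the variable genes, a filter on barcodes that removed those under 200 genes or over 20% mitochondrial UMIs, classes by Cd3 UMIs alone, by cluster name alone or with *Trac*, *Trbc1* and *Trbc2* counted, the highest 10% of doublet scores left out, mean UMIs per barcode, the mean over barcodes, the 10 most abundant transcripts (75.5% of UMIs) left out of the total, free RNA (estimated at 532 UMIs per barcode from *Mucl2*, *Pip* and *Scgb2b27*) taken away, and thinning to 500 and 1000 UMIs. The secretory transcripts summed for the sub-clusters were *Mucl2*, *Pip*, *Scgb1b27*, *Scgb2b26*, *Scgb2b27*, *Dcpp1*, *Dcpp2*, *Dcpp3*, *Prol1* and *Car6*. Sub-clusters 2 and 4 left out, and the highest barcode set to 0 or left out of sets of T-like barcodes, were alternatives added after the data were seen.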

Additional observations from a re-analysis of the deposited data

How the results depend on the processing

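The number of members with an interval above 0 in NK or ILC1-like over T-like barcodes was 8 in the main setting, and 4 with classes from Cd3 UMIs alone. That setting turned *Ccl5* to -0.26, *Gzma* to -0.08 and *Gzmb* to -0.52 on the log2 scale. *Ccl5* also turned to -0.03 with 30 principal components, -0.08 with the members kept among the variable genes and -0.12 with the filter on barcodes that removed those under 200 genes or over 20% mitochondrial UMIs. In each of these settings the number was therefore below 8 as well. Of 128 ratios over T-like barcodes, 8 genes under 16 alternatives, 121 kept their direction and an interval above 0, these 6 turned, and 1, *Nkg7* at 0.10 with Cd3 UMIs alone, had an interval that included 0. The 74.2% of member UMIs in lymphoid-like barcodes became 75 with that filter on barcodes and 81.6 without the highest doublet scores. The 973 NK or ILC1-like barcodes became 457 when *Trac*, *Trbc1* and *Trbc2* were also counted as marks of T cells, since fewer barcodes lack all of them. The causes of the other shifts were not tested. The T-like class, with 55 barcodes, had 2 to 7 UMIs of *Klrb1c*, *Ncr1*, *Gzma* and *Prf1*, which limits their ratios. No paired analysis was possible because the matrix is 1 sample with no replicate.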
